A study of Drosophila melanogaster with 2 samples.

Results

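The vacuolar proton pump genes of Drosophila melanogaster were examined for binding of ADD1 in whole embryos. They were taken as the protein-coding genes whose symbols start with Vha, which gave 33 of the 13945 protein-coding genes on the 6 chromosome arms other than Y. Chromatin immunoprecipitation with sequencing (ChIP-seq) had been done on male and female embryos aged 0 to 24 h, collected as a mixture from 1 transgenic line that stably expresses ADD1 with GFP at its C terminus. The precipitation used an antibody against GFP, per the labels' description, while their antibody field and strain name give CG8290. There was 1 group of 2 biological replicates and no second condition, so no binding is compared between conditions. The sources used here do not name the promoter that drives the transgene. A whole embryo mixes all its cell types, so a peak can come from any of them. The number of reads is not given either, and the depth of each replicate is therefore unknown.

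Binding was read from 4 deposited peak lists. The authors called 30000 peaks in each replicate and 30000 on both replicates together, here called the joint list. A further list held 7944 peaks kept by the authors after filtering on the irreproducible discovery rate (IDR), a measure of how far the replicates rank peaks alike. They were the same 7944 peaks as the strongest of the joint list. Each peak has a summit, its point of highest signal, and a signal value given by the authors on a scale that was not stated. Signals were compared only within a list, as ranks, with 1 the strongest. A gene was said to have a promoter summit where a summit lay within 500 bp of any of its annotated starts.

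The vacuolar proton pump, or V-ATPase, is a rotary enzyme that uses ATP to move protons across membranes and so acidifies lysosomes, endosomes and secretory vesicles. Its V1 sector sits in the cytosol and splits ATP, and its V0 sector lies in the membrane and carries the protons. In Drosophila many subunits are encoded by several genes, of which a single copy is known to be used in epithelia and widely elsewhere, while many of the other copies are known to be restricted in their expression, often to the testis. ADD1 is a chromatin protein and a known partner of HP1a, a protein of heterochromatin. The 14 broadly used subunit genes were listed from the set known from fly epithelia, with VhaAC45 added. VhaM8.9 was also listed, but it is annotated as ATP6AP2, without the Vha prefix, and is not among the 14. The other 19 genes are called paralogs. No expression was measured in this series, so that division is background and not a result.

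Stretches of promoter sequence show what lay at some of the summits and what did not. They were read from genome Release 6 (dm6) on the strand of each gene, 5′ to 3′, with capitals marking matches to the words listed further on. The first 4 lie at the strongest promoter summits of Vha55, Vha13, Vha68-2 and Vha100-2. The VhaSFD stretch is shown for a TATCGATA word just before its start, and the last pair for a shared GGTCACACT word at the start of genes without an IDR promoter summit. The positions are chr3R:12627830-12628029 for Vha55, chr3R:19644387-19644478 for Vha13, chr2L:12974146-12974266 for Vha68-2 and chr3R:18399170-18399288 for Vha100-2. The others are chr2L:16727827-16727886 for VhaSFD, chr3R:5591723-5591772 for Vha26 and chr3R:29131153-29131202 for Vha100-1. All end just before the annotated start except that of Vha68-2, which ends 56 bp before it, and those of Vha26 and Vha100-1, whose last 10 bases begin at the start.
Vha55: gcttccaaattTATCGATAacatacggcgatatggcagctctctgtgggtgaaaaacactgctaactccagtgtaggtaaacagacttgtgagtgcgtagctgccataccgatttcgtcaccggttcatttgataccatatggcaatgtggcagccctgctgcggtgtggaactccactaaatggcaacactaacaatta
Vha13: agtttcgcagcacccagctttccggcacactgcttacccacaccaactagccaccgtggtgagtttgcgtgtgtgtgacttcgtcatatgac
Vha68-2: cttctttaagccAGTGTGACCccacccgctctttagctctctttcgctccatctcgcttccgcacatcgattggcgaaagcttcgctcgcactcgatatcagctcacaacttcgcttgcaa
Vha100-2: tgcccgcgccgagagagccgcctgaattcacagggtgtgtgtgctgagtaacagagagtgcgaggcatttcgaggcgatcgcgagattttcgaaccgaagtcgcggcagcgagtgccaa
VhaSFD: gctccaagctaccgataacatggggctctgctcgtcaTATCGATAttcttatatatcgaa
Vha26: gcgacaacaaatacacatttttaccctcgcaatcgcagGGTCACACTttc
Vha100-1: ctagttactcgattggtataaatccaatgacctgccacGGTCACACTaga
The summit is base 170 of the Vha55 stretch and base 61 of those of Vha13, Vha68-2 and Vha100-2.

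Promoter summits lay at most of the broadly used subunit genes and at none of their paralogs in the IDR list. Of the 14 broadly used genes 11 had one (78.6%), of the 19 paralogs 0 had one, and of all protein-coding genes 26.1% had one. Over the 33 genes together the count was 11, or 33.3%, which is near the share of all coding genes. The V1 and V0 sectors were alike in this, with 6 of 8 broadly used V1 genes and 5 of 6 broadly used V0 genes, against 0 of 5 and 0 of 14 of their paralogs. Of the 9 subunits encoded by several genes, 7 had a promoter summit at the broadly used gene only, and 2 had none at any copy. Among the 5 subunits encoded by a single Vha gene 4 had one. No test was run on these counts, because there is 1 group and no second condition.

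**Figure D1:**
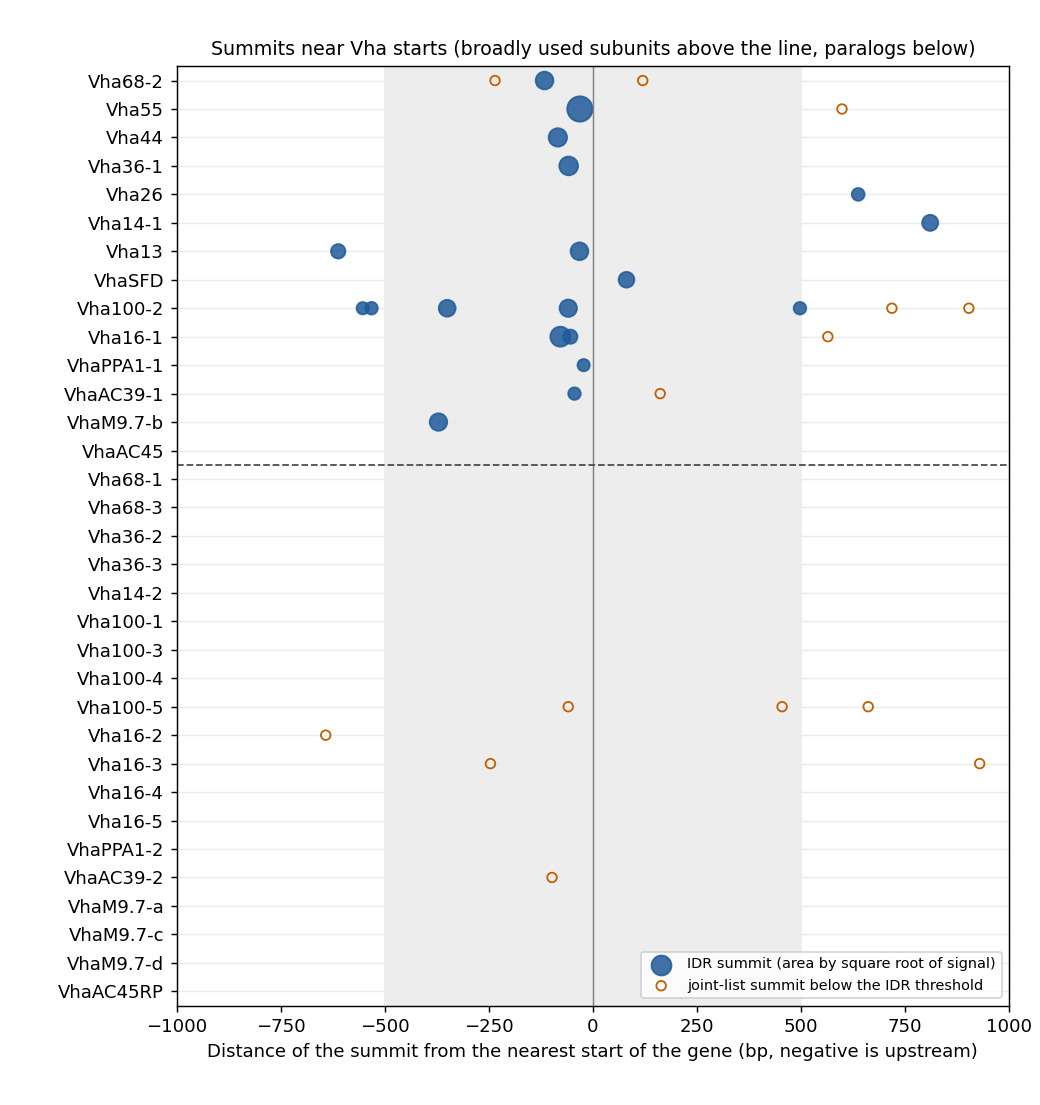
Distance in bp of each summit within 1000 bp from the nearest start of its gene, for the 33 Vha genes, with the 14 broadly used subunits above the dashed line and the 19 paralogs below it. Filled circles are IDR summits, with area proportional to the square root of the authors' signal, open circles are joint-list summits below the IDR threshold, and grey marks 500 bp on either side of a start. Filled circles within the grey band belong to 11 of the broadly used subunits and to 0 of the paralogs.

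The strongest of these peaks lay at 1 gene of the catalytic head of the V1 sector. Vha55 (FBgn0005671) encodes subunit B, which alternates with subunit A in the hexamer that binds ATP. Its summit lay 31 bp upstream of a start (chr3R:12627662-12628104) and ranked 56 in the IDR list with a signal of 2426, 79 in replicate 1 with 1273 and 34 in replicate 2 with 1141. A start of Snx3, a sorting nexin gene, was 171 bp from this summit on its other side. The peak thus lay between neighbouring starts and cannot be assigned to Vha55 alone. Subunit A, which splits ATP, is encoded by Vha68-2 (FBgn0263598), where the summit was 116 bp upstream (chr2L:12974013-12974336). It ranked 1014 in the IDR list, 1147 in replicate 1 and 1069 in replicate 2. Both replicates thus ranked Vha55 well ahead of Vha68-2, whose rank of 1014 was the median of the 11 bound Vha genes in the IDR list.

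Neither paralog of subunit A had an IDR summit near it. Vha68-3 lies 178 bp downstream of Vha68-2 on the same strand, and the nearest IDR summit to its start was 4580 bp away, at the Vha68-2 promoter. The nearest IDR summit to Vha68-1 was 29901 bp away. In replicate 2 alone a summit of rank 25468 lay within 500 bp of the Vha68-3 start, and neither replicate had one at Vha68-1.

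The stalks of V1 were bound at 4 of 6 broadly used genes, and the remaining pair had their nearest IDR summits further than 500 bp away. Vha36-1 (FBgn0022097) encodes subunit D, the rotor shaft that turns inside the head. Its summit was 58 bp upstream (chr2R:15541268-15541534) and ranked 659 in the IDR list, 735 in replicate 1 and 678 in replicate 2. The start of CG8187 was nearer to this summit, at 14 bp. Vha44 (FBgn0287825) encodes subunit C, which links the stator to the membrane sector and leaves when the pump comes apart. Its summit was 84 bp upstream (chr2R:16336587-16336843) and ranked 765, 1037 in replicate 1 and 547 in replicate 2. This summit was nearer to Hmgs, the gene of hydroxymethylglutaryl-CoA synthase, at 39 bp. For both genes the peak therefore lay between neighbouring starts and cannot be assigned to either gene alone.

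Vha13 and VhaSFD had the summit to themselves. Vha13 (FBgn0283536) encodes subunit G of the peripheral stalks, and its summit 32 bp upstream (chr3R:19644254-19644578) ranked 1005 in the IDR list, 1182 in replicate 1 and 977 in replicate 2. A further IDR summit of rank 3730 stood 612 bp upstream of Vha13 and 28 bp from a start of Nup58, a nuclear pore gene. In the 3' UTR of Vha13 lay a weak IDR summit, which ranked 6878, 5298 in replicate 1 and 13483 in replicate 2. VhaSFD (FBgn0027779) encodes subunit H, which regulates the joining of the sectors. Its summit was 81 bp inside the gene, in the 5' UTR (chr2L:16727646-16727924), and ranked 2350, 2334 in replicate 1 and 3155 in replicate 2. Among the strongest promoter summits of the 11 genes it was the only one downstream of the start.

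Vha26 and Vha14-1 were the V1 genes just outside the 500 bp limit, and VhaM9.7-b at 371 bp was the bound gene nearest to it by its strongest summit. Vha26 (FBgn0283535) encodes subunit E, the partner of G in the peripheral stalks, and had an IDR summit 638 bp downstream of its start, in an intron (chr3R:5592322-5592433). That summit ranked 6474 in the IDR list, 8498 in replicate 1 and 5360 in replicate 2. In replicate 2 alone a weak peak of rank 25744 had its summit 27 bp from the Vha26 start. Vha14-1 (FBgn0262512) encodes the small rotor subunit F. The IDR summit nearest to it lay 811 bp from its start, beyond the end of the gene and 317 bp from a start of Gmppa (chr2R:15679163-15679388), with rank 2029. The paralogs Vha14-2, Vha36-2 and Vha36-3 had their nearest IDR summits 76001, 2109 and 1724 bp from a start.

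In the membrane sector the genes of subunits c and a had several IDR summits each, some of them inside the gene. Vha16-1 (FBgn0262736) encodes subunit c, the proteolipid that forms most of the ring. Its strongest summit was 78 bp upstream (chr2R:6632911-6633367) and ranked 400 in the IDR list with a signal of 942, 505 in replicate 1 with 500.1 and 311 in replicate 2 with 447. A second promoter summit 54 bp upstream of its inner start ranked 3950. Further inside, 3 more IDR summits lay in introns at 1156, 1699 and 3943 bp from the nearest start, with ranks of 6921, 2178 and 2819. The last of these differed most between the replicates, at rank 5701 in replicate 1 and 1223 in replicate 2.

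Vha100-2 (FBgn0028670) encodes subunit a, the stator part that guides protons to the ring and whose isoforms decide the membrane that holds the pump. It had 3 IDR promoter summits. The strongest in the IDR list lay 59 bp upstream of the outer start (chr3R:18399026-18399468) and ranked 1184, 1636 in replicate 1 and 701 in replicate 2. Another ranked 1483 and lay 350 bp upstream of the inner start, in an intron (chr3R:18397097-18397560). It ranked 1076 in replicate 1 and 1745 in replicate 2, so in replicate 1 it was the stronger of these summits and in replicate 2 the weaker. The weakest, of rank 6945, was 498 bp downstream of the outer start and so just inside the limit. Starts of Vti1b, which encodes a SNARE protein, were 481 bp from the summit at the outer start and 283 bp from that at the inner start. The summit at the inner start was thus nearer to Vti1b and cannot be assigned to either gene alone. A further IDR summit of rank 6846 stood 532 bp upstream of Vha100-2 and 8 bp from a start of Vti1b. Vha100-4 lies 517 bp downstream of Vha100-2 on the same strand, and the nearest IDR summit to its start was 7473 bp away.

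The remaining V0 genes had a single IDR promoter summit each or none. VhaM9.7-b (FBgn0028663) encodes subunit e, a small membrane protein. Its summit ranked 1134 in the IDR list, 1152 in replicate 1 and 1403 in replicate 2, but lay 371 bp upstream of VhaM9.7-b and 44 bp from a start of COX8, a gene of cytochrome c oxidase (chr3L:21539388-21539657). This peak too lay between neighbouring starts and cannot be assigned to either gene alone. VhaAC39-1 (FBgn0285910) encodes subunit d, the seat of the rotor shaft on the ring. Its summit 44 bp upstream (chrX:3880549-3880858) ranked only 7161, 9433 in replicate 1 and 5922 in replicate 2. VhaPPA1-1 (FBgn0028662) encodes the larger proteolipid c″ of the ring, and its summit 22 bp upstream (chr3R:14903928-14904237) ranked 7752, 8352 in replicate 1 and 10134 in replicate 2. These last 2 peaks were close to the weak end of the IDR list, and neither gene kept a promoter summit among the 7944 strongest peaks of replicate 1. VhaAC45 (FBgn0262515), the gene of an accessory membrane glycoprotein, had its nearest IDR summit 21257 bp away, although replicate 1 held a peak of rank 12060 with its summit 112 bp from the start.

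Each IDR promoter summit was looked up in the lists of the single replicates. All 14 IDR promoter summits at the 11 genes had a summit within 200 bp in each whole replicate list, 11 of them within 50 bp, and 11 were matched among the 7944 strongest peaks of both. The replicate summits matched to the strongest IDR promoter summit of each of the 11 genes had a median rank of 1152 in replicate 1 and 977 in replicate 2. Among the 7944 strongest peaks of each replicate, 9 broadly used genes and 0 paralogs had a promoter summit in replicate 1, against 25.8% of all coding genes. In replicate 2 the counts were 10 broadly used genes and 2 paralogs, against 29.0% of all coding genes. The IDR list held the 7944 strongest peaks of the joint list, which was called on both replicates together, and its length came from the authors' IDR filter. The matches of its summits therefore describe the peaks and do not measure how well the replicates agree.

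**Figure D2:**
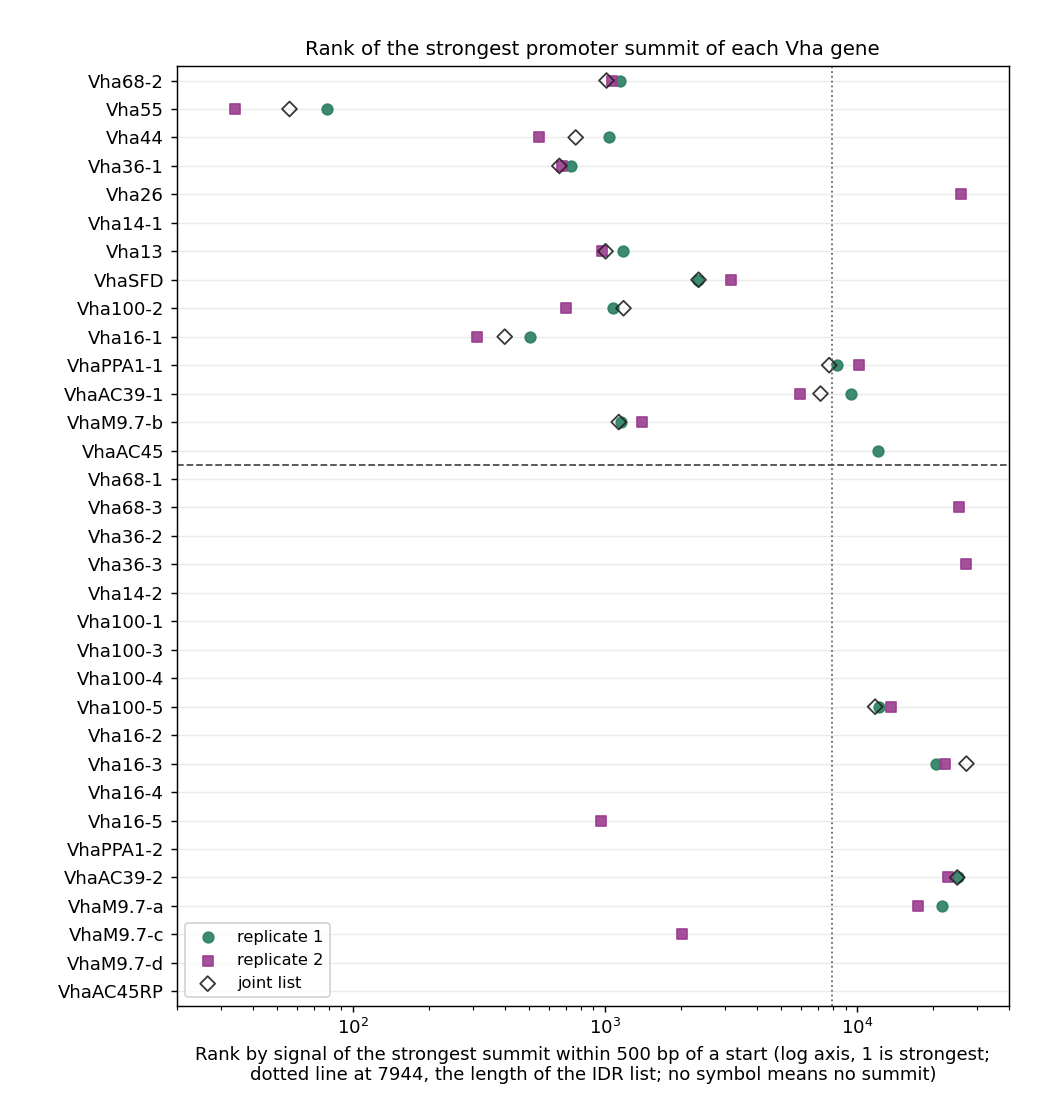
Rank by signal of the strongest summit within 500 bp of a start, on a log axis, for each of the 33 Vha genes in replicate 1 (circles), replicate 2 (squares) and the joint list (open diamonds), where a rank of at most 7944 in the joint list means an IDR peak. The symbols of Vha55 lie between 34 and 79, and those of VhaAC39-1 and VhaPPA1-1 lie around the dotted line at 7944. Below the dashed line the paralogs Vha16-5 and VhaM9.7-c have a strong symbol for replicate 2 only.

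Where a promoter peak was present at a Vha gene it was often strong. The median rank of the strongest promoter summit was 1014 over the 11 bound Vha genes, with quartiles of 712 and 1767, and 2644.5 over the 3638 bound coding genes. Among the 1986 strongest peaks of the IDR list stood 8 of the 11 (72.7%), against 38.7% of the bound coding genes. The median distance of these summits to a start was 59 bp, against 68 bp over all bound coding genes. Upstream of the start lay 10 of the 11 summits, against 75.9% of those at all bound coding genes. Within 100 bp of the start lay 9 of the 11, against 61.2%.

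**Figure D3:**
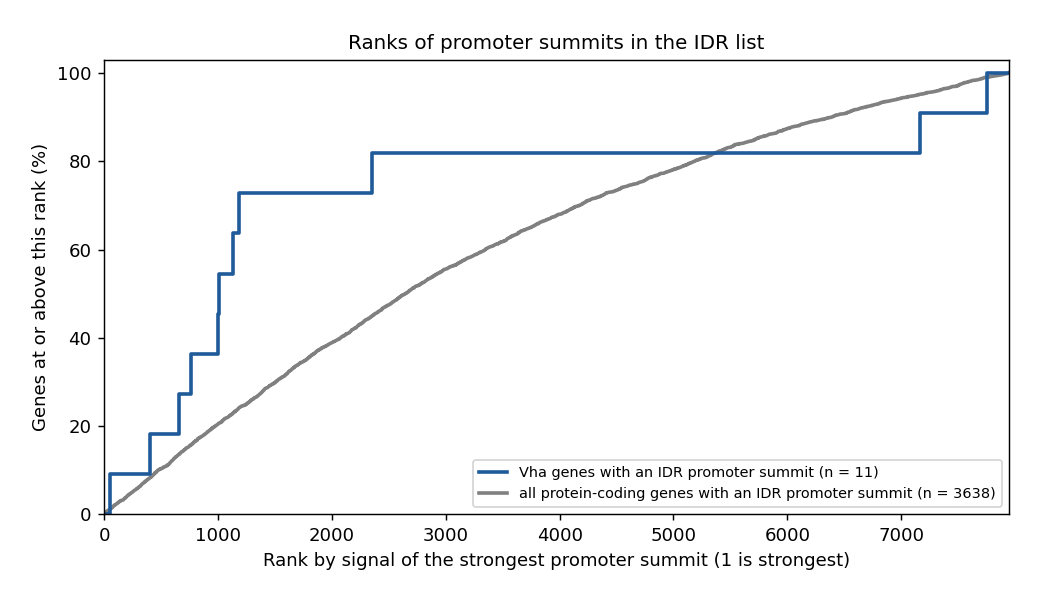
Cumulative share of genes, in percent, whose strongest promoter summit in the IDR list stands at or above a given rank by signal, for the 11 bound Vha genes and for the 3638 bound protein-coding genes. The Vha line reaches 72.7% within the 1986 strongest peaks and includes 9 genes before the weak summits of VhaAC39-1 at 7161 and VhaPPA1-1 at 7752.

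At the paralogs the peaks were weak, found in a single replicate or absent. In the whole joint list 3 of the 19 had a promoter summit, the broadly used genes stayed at 11 of 14, and all coding genes were at 37.9%. Vha100-5, another gene of subunit a, had the strongest, 59 bp upstream of its start (chr2L:11738734-11739043), with rank 11794 in the joint list, 12243 in replicate 1 and 13587 in replicate 2. VhaAC39-2 had a joint summit of rank 24973 at 98 bp, while the promoter summit of replicate 2 was 494 bp from the start. Vha16-3 had one of rank 27157 at 246 bp, while that of replicate 2 was 189 bp from a start, in a coding exon. VhaM9.7-a had weak promoter summits in both replicates, of rank 21769 in replicate 1 and of ranks 17389 and 23675 in replicate 2, but none in the joint list. Vha36-3 had promoter summits in replicate 2 alone, of rank 26954 at 450 bp and of rank 29631 at 9 bp from a start. None of the 4 lists held a promoter summit for 11 of the 19 paralogs. They were Vha68-1, Vha36-2 and Vha14-2 of V1, and Vha100-1, Vha100-3, Vha100-4, Vha16-2, Vha16-4, VhaPPA1-2, VhaM9.7-d and VhaAC45RP of V0. The distance from a start to the nearest IDR summit had a median of 7473 bp over the paralogs, and it ranged from 1417 bp at VhaAC39-2 to 76001 bp at Vha14-2. The same distance is not given for other coding genes without a promoter summit, so it does not set the paralogs apart from them.

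**Figure D4:**
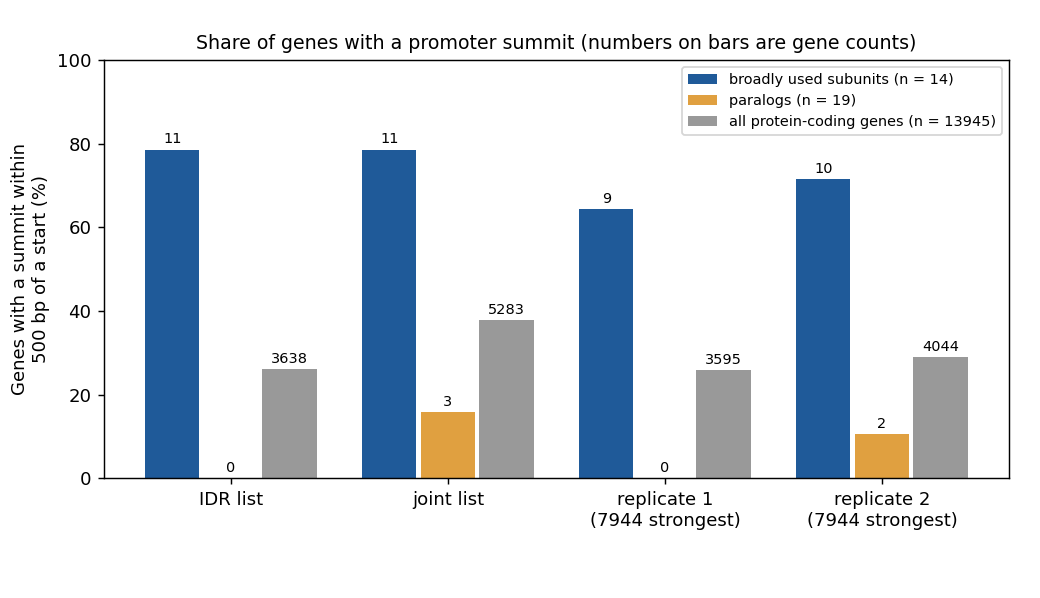
Percent of genes with a summit within 500 bp of a start, for the 14 broadly used Vha subunits, the 19 paralogs and all 13945 protein-coding genes. The number of genes is written on each bar. The peaks are those of the IDR list, the whole joint list and the 7944 strongest of each replicate. In these the broadly used subunits stand between 9 and 11 genes, and the paralogs between 0 and 3. The whole replicate lists, which are not drawn, held a promoter summit for 4 paralogs in replicate 1 and 8 in replicate 2.

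Vha16-5 and VhaM9.7-c, paralogs of subunits c and e, had strong peaks in replicate 2 with nothing comparable elsewhere. The replicate 2 summit at Vha16-5 (chr2L:10737233-10737428) ranked 962 and was 296 bp distant from the Vha16-5 start, with a CG12299 start at 6 bp, and the nearest summit in replicate 1 was 14062 bp away. At VhaM9.7-c (chr3L:4186808-4186965) the replicate 2 summit ranked 2024 and lay 18 bp from the start, with the nearest summit of replicate 1 at 16431 bp. The joint list held neither of them, its nearest summits being 14077 and 34007 bp away. Both rest on 1 replicate, and what sets that replicate apart at these sites was not tested.

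The genes of the broadly used set also differed from their paralogs in features of the annotation. Their median length was 2907 bp, against 1371 bp for the paralogs and 2166 bp for all coding genes. A coding start on the other strand within 1000 bp upstream was found at 9 of the 14, against 5 of the 19 paralogs and 36.2% of all coding genes. A promoter summit was present at 6 of the 9 broadly used genes with such a neighbour and at 5 of the 5 without one. The paralogs had 0 of 5 and 0 of 14, and all coding genes 36.1% and 20.4%. At 5 of the 11 bound genes another coding start lay within 500 bp of the strongest summit, and at 3 of them, Vha36-1, Vha44 and VhaM9.7-b, it was the nearer of the starts. The part that gene length and neighbours have in the difference was not tested.

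Inside the genes, counting summits anywhere between their ends, the Vha genes were not set apart from other genes. An IDR summit lay inside 5 of the 33 (15.2%), against 17.3% of all coding genes. All 5 were among the 14 broadly used genes (35.7%), and 0 of the 19 paralogs had one. The 5 genes were Vha16-1 with 4 summits, Vha100-2 with 3, and Vha26, Vha13 and VhaSFD with 1 each. Of these 10 summits 8 were in introns. More than 500 bp from any start of the gene, an inside summit was left at 4 of the 33 genes (12.1%), against 10.8% of all coding genes. All 4 were among the 14 broadly used genes (28.6%).

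Words that are known binding sites of promoter factors were few in the Vha promoters. Promoters were searched on both strands from 250 bp before to 50 bp after the outermost start for TATCGATA, known as the DRE and bound by DREF, for GGTCACACT, the site of M1BP, for CACGTG, the E-box, and for TCACGTGA, the core of the element bound by Mitf and its mammalian relative TFEB, which contains the E-box. TATCGATA was found at 2 of 14 broadly used genes, Vha55 at 189 bp and VhaSFD at 23 bp before the start, at 0 of 19 paralogs and in 9.36% of all coding promoters. GGTCACACT was found at 2 of 14 broadly used genes, Vha68-2 and Vha26, at 1 of 19 paralogs, Vha100-1, and in 6.05% of all coding promoters. In Vha26 and Vha100-1 it began 2 bp before the start, and neither gene had an IDR promoter summit. TCACGTGA was found once, 48 bp before the start of Vha44, and is in 0.172% of all coding promoters. The E-box was found at 1 of 14 broadly used genes, Vha44, at 2 of 19 paralogs, VhaAC45RP and VhaM9.7-d, and in 4.20% of all coding promoters. Within 100 bp of the 14 IDR promoter summits, TATCGATA was at 0, against 8.41% of 3627 such summits at all coding genes. GGTCACACT was at 2 of the 14, at Vha68-2 and Vha16-1, against 5.60%. The E-box was at 2, at Vha55 and Vha44, against 2.84%, and TCACGTGA was at the Vha44 summit, against 0.221%. With so few matches these counts are given as a description. A match is a description of the letters and not evidence that a factor was bound.

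Other genes of acidification and of the lysosome were bound about as often as coding genes in general. Of 23 such genes 7 had an IDR promoter summit (30.4%), against 26.1% of all coding genes. The strongest were at Lamtor3 and Lamtor4, of the Ragulator complex that works with the pump in nutrient sensing, with ranks of 1249 and 2286, and between them at Npc1a, the lysosomal cholesterol transporter, with rank 2212. The Npc1a summit was nearer to Prosalpha6, at 34 bp against 101 bp, and replicate 1 held no summit within 500 bp of an Npc1a start. Lamtor5 (rank 3651), the cathepsin gene CtsL1 (rank 4173) and the lysosomal membrane protein gene Lamp1 (rank 5256) followed. The other genes named here were chosen after their values had been seen. Mitf, the gene of a transcription factor known to regulate pump genes, had no IDR promoter summit and one of rank 15937 in the joint list. ATP6AP2, an accessory subunit gene also called VhaM8.9, had none in the IDR list either. The annotation lists it without the Vha prefix, so the 14 broadly used genes do not include it. In the joint list the strongest ATP6AP2 promoter summit ranked 16220 and lay 493 bp from a start, and that of replicate 1 ranked 18433 at 496 bp. Replicate 2 held one of rank 2720 at 6 bp from a start.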

How the data were processed

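Peak lists on assembly dm6 (per the deposited descriptions) were analysed for 1 group of 2 replicates, with peaks called by the authors on each replicate or on both together, against a control that was not analysed here. The sources used here name no caller, aligner or read filter (not given). The deposited signal per peak, on an unstated scale, served to rank peaks within a list. The deposited −log10 q-value was capped at 1 highest value, which 6739 IDR peaks shared, and was not used for ranking. Depth is unknown.

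Genes and starts came from the Ensembl 115 annotation of Release 6 (BDGP6.54), without annotated mobile elements, and sequence from RefSeq's Release 6. All 33 Vha genes had the same coordinates in RefSeq, and 0 peaks ran past a sequence end. Overlaps were computed in Python 3.11.15 with pandas 2.3.3, and the assignment of summits was tested on simulated data. Counts, medians and shares are descriptions without a test. The members, gene lists, words and alternatives were chosen with earlier results of these data known. By rule, Vha genes with an IDR or joint promoter summit are given in full, the others by distance, and at most 6 acidification genes with IDR promoter summits, strongest first; other names are marked. Of 25 listed acidification genes 2 names were not found under those symbols.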

Additional observations from a re-analysis of the deposited data

How the results depend on the processing

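The alternatives were windows of 200 or 1000 bp, each replicate alone, the stronger 3972 IDR peaks, the nearest start only, and overlapping intervals in place of summits. For the counts below, a replicate alone means its 7944 strongest peaks and not its whole list. The broadly used genes with a promoter summit numbered between 8 and 13 of 14 in all 7, against between 17.7% and 29.5% of all coding genes. With the nearest start only, Vha36-1, Vha44 and VhaM9.7-b dropped out, and with 1000 bp Vha14-1 and Vha26 came in. The paralogs stayed at 0 except with a single replicate, where the count ranged from 0 to 2. The acidification genes numbered 4 in the stronger 3972 peaks, which gave a promoter summit to 17.7% of all coding genes. Vha genes with an inside summit numbered 3 in the stronger 3972 peaks and 12 when overlapping intervals counted. The share of all coding genes is not given for these inside counts, so neither is read as a result. The median rank of the bound Vha genes was 1134 with 1000 bp and 1099 with the nearest start only. No paired analysis was possible because there is 1 group. With depth unknown, a missing peak cannot be told from one below detection, and each list of 30000 peaks is no measure of binding.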

Other observations

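Strong peaks of replicate 2 without a partner were not limited to Vha16-5 and VhaM9.7-c. Of the 2100 strongest peaks of replicate 2, 165 (7.86%) had no summit of replicate 1 within 500 bp and 128 (6.10%) had none in the joint list. For the 2100 strongest of replicate 1 the counts were 33 (1.57%) without a summit of replicate 2 and 39 (1.86%) without one in the joint list. The number 2100 was chosen after the 2 paralog peaks had been seen, so as to include both. ClC-c, a chloride transporter gene of the acidification list that was named after its values had been seen, had a replicate 2 promoter summit of rank 1729 and none in the other lists.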
